A study of Mus musculus with 15 samples.

Results

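The AP-1 and immediate early factors described here are 10 genes that were chosen by name: the Fos genes Fos, Fosb, Fosl1 and Fosl2, the Jun genes Jun, Junb and Jund, the zinc finger gene Egr1, and the immediate early response genes Ier2 and Ier3. The choice was made with earlier results of these data known. All 10 genes have a row in both tables, of 24421 gene symbols in each. RNA was sequenced from an established C57BL/6 mouse line of biliary epithelium, the lining of bile ducts. Every library carries the same genotype, ITR-CreERT2;Klf5flox/flox, in which 4-OH tamoxifen activates a Cre recombinase that deletes floxed Klf5, a Krüppel-like transcription factor. The groups were 4-OH tamoxifen (4 libraries) and EtOH control (3 libraries) at 12 h, and 4-OH tamoxifen (4 libraries) and EtOH control (4 libraries) at 24 h. Effects of tamoxifen itself, of Cre activity and of Klf5 loss cannot be told apart, since all libraries are of 1 genotype. The growth form is not settled here, since the series is titled as 3D and in vitro but its design says in vivo. It is a single line, the labels do not say whether replicates were separate cultures, and p-values therefore reflect the spread among these libraries alone, possibly a technical one.

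Fos and Jun proteins bind DNA as pairs joined by a leucine zipper, and the pair is called AP-1. Jun proteins can pair with each other, whereas Fos proteins need a Jun or a related partner. Fos, Fosb, Egr1, Ier2 and Jun are textbook immediate early genes: growth factors and stress switch them on within minutes through MAP kinases and the serum response factor, without new protein synthesis, and several of their mRNAs are short-lived. In epithelia AP-1 is known for its part in proliferation, migration and matrix breakdown.

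To show the start regions of the genes on which the results turn, promoter windows of 300 bases, from 250 before to 50 after the RefSeq start on GRCm38.p6, are printed for Fos, Fosb and Fosl2, the members with the clearest differences, and for Jun, the partner of all 3. Capitals mark matches on either strand to TGACG (the core shared by CRE and ATF sites), TGACNTCA (an AP-1 and CRE-like site), GGGCGG (the GC box of Sp and Krüppel-like factors), CCACCC (the CACCC box of Krüppel-like factors) and TATAAA.
Fos (chr12:85473640-85473939, forward strand): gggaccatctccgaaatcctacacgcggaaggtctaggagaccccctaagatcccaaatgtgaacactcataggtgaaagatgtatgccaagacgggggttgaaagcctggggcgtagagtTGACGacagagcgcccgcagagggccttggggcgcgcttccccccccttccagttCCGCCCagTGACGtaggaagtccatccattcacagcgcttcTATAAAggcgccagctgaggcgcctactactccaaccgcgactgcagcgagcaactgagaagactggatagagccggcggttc
Fosb (chr7:19309996-19310295, reverse strand): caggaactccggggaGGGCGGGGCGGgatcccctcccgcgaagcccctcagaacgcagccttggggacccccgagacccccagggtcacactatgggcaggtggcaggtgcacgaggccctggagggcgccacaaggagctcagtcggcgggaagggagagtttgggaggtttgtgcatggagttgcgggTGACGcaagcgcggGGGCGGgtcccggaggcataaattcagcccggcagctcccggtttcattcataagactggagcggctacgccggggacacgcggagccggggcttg
Fosl2 (chr5:32136222-32136521, forward strand): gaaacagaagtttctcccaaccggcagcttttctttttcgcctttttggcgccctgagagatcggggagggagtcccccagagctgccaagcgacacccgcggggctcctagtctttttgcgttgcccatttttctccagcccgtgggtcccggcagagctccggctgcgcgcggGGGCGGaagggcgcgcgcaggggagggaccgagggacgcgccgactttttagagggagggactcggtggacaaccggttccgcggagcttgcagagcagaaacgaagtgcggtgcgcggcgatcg
Jun (chr4:95052173-95052472, reverse strand): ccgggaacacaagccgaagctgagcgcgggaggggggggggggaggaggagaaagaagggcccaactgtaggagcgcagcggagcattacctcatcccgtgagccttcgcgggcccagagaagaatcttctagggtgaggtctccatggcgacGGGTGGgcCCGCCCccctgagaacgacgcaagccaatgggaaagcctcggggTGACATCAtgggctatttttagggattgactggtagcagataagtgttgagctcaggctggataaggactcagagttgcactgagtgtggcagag
On GRCm38, GENCODE places the gene Fos on chromosome 12 from 85473890 to 85477273, Fosb on chromosome 7 from 19302696 to 19310051, Fosl2 on chromosome 5 from 32135801 to 32157842 and Jun, which has a single exon, on chromosome 4 from 95049034 to 95052222. The Fos window held 2 TGACG matches, 1 GGGCGG and 1 TATAAA, and the Fosb window held 1 TGACG and 3 GGGCGG matches. The Fosl2 window held 1 GGGCGG, and the Jun window held 1 TGACNTCA, 1 CCACCC and 1 GGGCGG. Of 32817 such windows over the genome, 20.8% held TGACG, 8.84% TGACNTCA, 35.6% GGGCGG, 31.5% CCACCC and 13.6% TATAAA, so a match on its own is common. The motif GCGNGGGCG, which Egr1 binds, overlaps a GGGCGG in both the Fosb and the Fosl2 window and was found in 5.56% of all windows. None of the 7 member windows with a RefSeq entry (Fos, Fosb, Fosl2, Jun, Junb, Jund and Ier3) held a full TGACGTCA, a TGANTCA or a CArG box, which says only that these letters are not in the windows. The Jund window ends at 70697788 on chromosome 8, before the GENCODE start of Jund at 70698949. The Fosl2 window lies inside the GENCODE gene, so neither window covers the GENCODE start.

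Klf5 was examined first, as the targeted gene. Klf5 had fallen by 1.29 (log2) after 12 h in the authors' deposited table (SE 0.23, adjusted p = 9.75e-06 in the authors' DESeq2 Wald test), to 40.9% of the ethanol level. In the authors' deposited table Klf5 fell by 1.72 at 24 h (SE 0.08, adjusted p = 9.51e-107 in the same test), to 30.4% of ethanol. Reads of every Klf5 exon are included, since the floxed exons are not named in the labels. The authors' normalised counts averaged 13.9 M per library at 12 h and 11.8 M at 24 h. Biliary keratin genes were abundant in the authors' deposited tables, with means of 23752 normalised counts for Krt19 and 48237 for Krt18 at 12 h, whereas the epithelial marker Epcam had 15.7 and the secretin receptor gene Sctr was at 0. Of 6 endothelial markers 4 were at 0 at 12 h and 3 at 24 h, of 7 immune markers 2 were at 0 at each time, and of 8 fibroblast and stellate markers 6 and 4 were at 0 at 12 h and 24 h, in the authors' deposited tables. The summed means of these 3 marker lists were 1.75, 81.5 and 30.3 normalised counts at 12 h, in that order, against 26457 for the 10 factors, in the authors' deposited table. Hepatocyte markers were not low throughout: their summed mean was 9575 normalised counts at 12 h and 4870 at 24 h in the authors' deposited tables, and 1 of 8 at 12 h and 2 of 8 at 24 h were at 0. Hnf4a, a liver transcription factor, had a mean of 7584 at 12 h, the apolipoprotein gene Apoa1 1291 and the transthyretin gene Ttr 685, whereas albumin (Alb) had 3.68, in the authors' deposited table. Of the hepatocyte markers with an adjusted p, 5 at 12 h and 4 at 24 h, 0 passed the authors' Wald test at either time, and 0 had an unadjusted p under 0.05. The part of such cells or of this expression in the results was not tested.

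All 10 factors were expressed at both times. The tables hold no value per library, so group levels were computed from each gene's mean and fold. Per kilobase of exon and per 1 M normalised counts, the 12 h order was Junb (189), Ier3 (131), Egr1 (110), Jund (103), Ier2 (101), Fosl1 (77.0), Fos (64.0), Jun (27.2), Fosl2 (6.74) and Fosb (6.74). From Ier3 down to Fos the 95% intervals of neighbours in this order overlapped, as did those of Fosl2 and Fosb, while Junb, Jun and the Fosl2 and Fosb pair stood apart from their neighbours. At 24 h the order on the same scale was Ier3 (128), Egr1 (121), Fos (107), Jund (103), Junb (90.6), Ier2 (80.2), Fosl1 (75.9), Jun (38.8), Fosb (16.1) and Fosl2 (7.86). Intervals of neighbours overlapped from Ier3 down to Fosl1, and Jun, Fosb and Fosl2 each stood apart from the gene above. Exon lengths cover all annotated isoforms, so a gene with long alternative ends is set lower on this scale than its main transcript would be.

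The mean levels at the 2 times were set side by side without a test, because the tables were normalised separately. Per 1 M normalised counts, the level at 24 h over that at 12 h was 2.39 for Fosb, 1.67 for Fos and 1.43 for Jun, and 0.48 for Junb. Over the 9861 genes whose mean reached 50 normalised counts at both times, the median of this ratio was 0.963, and the middle 95% of genes lay between 0.35 and 2.55. All 10 factors lay inside that range.

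**Figure D1:**
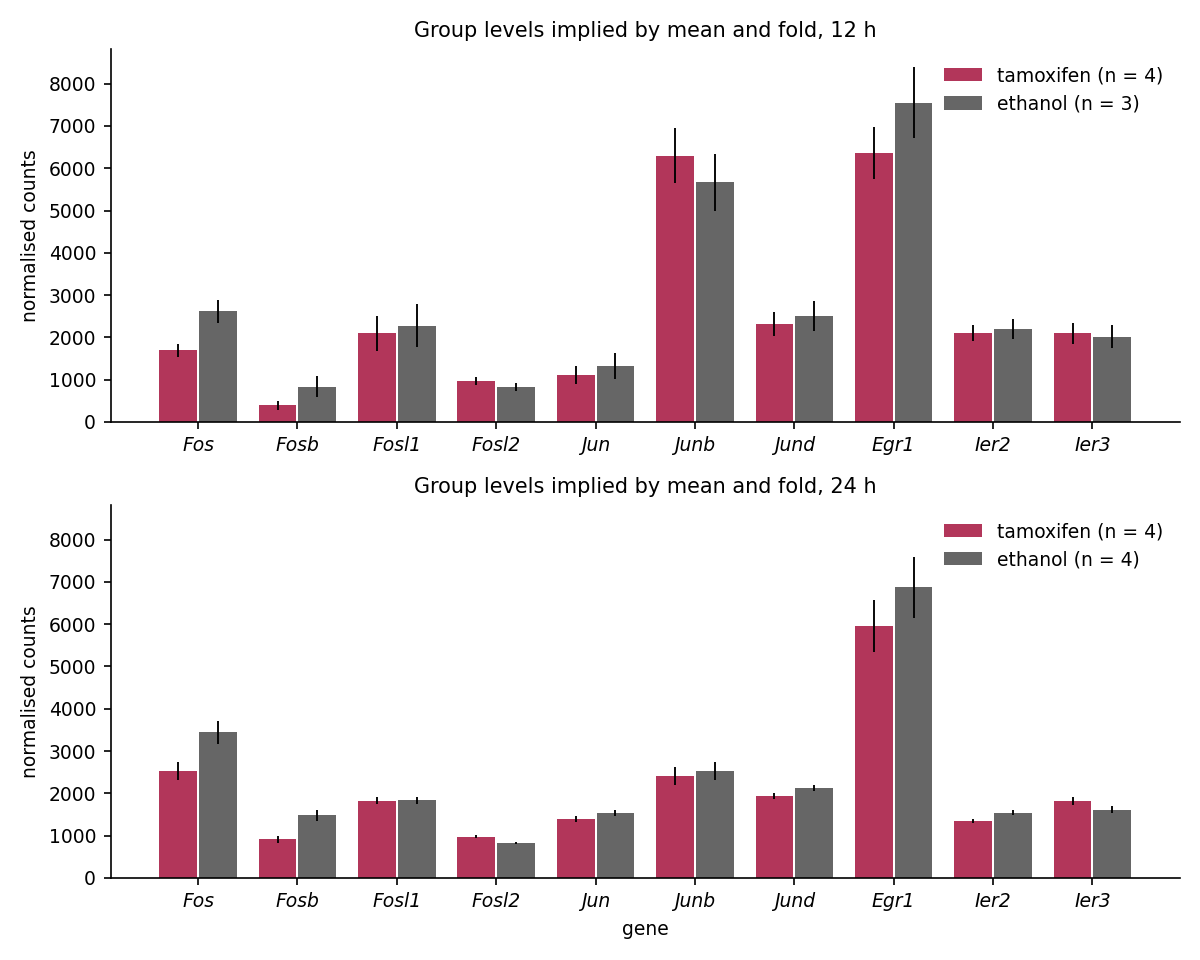
Normalised counts (y axis) of each gene (x axis) in tamoxifen and ethanol cells at 12 h (upper panel) and 24 h (lower panel), computed from the deposited mean and fold, with error bars of 1 SE of the group mean derived from the deposited standard error of the fold. Fosb stood at 907 in tamoxifen and 1475 in ethanol cells at 24 h, and Fosl2 at 976 in tamoxifen and 827 in ethanol cells.

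Among the Fos genes, Fosb fell and Fosl2 rose at 24 h, while Fos had lower values with tamoxifen at both times and passed the test at neither. In bulk RNA, a lower level in every cell and fewer cells that express a gene cannot be told apart. Fosb encodes a Fos protein with a long and a truncated splice form, which gene totals do not separate. From the authors' deposited table, the computed level of Fosb at 12 h was 398 normalised counts in tamoxifen cells and 833 in ethanol cells. In the authors' deposited table its log2 fold at 12 h was -1.07 (SE 0.58, adjusted p = 0.94 in the authors' Wald test), so the largest difference of the 10 did not pass at that time. The 95% interval reached from 21.6% to 105% of ethanol. The computed level of Fosb at 24 h was 907 normalised counts in tamoxifen cells and 1475 in ethanol cells. In the authors' deposited table Fosb fell by 0.70 at 24 h (SE 0.18, adjusted p = 0.00174 in the authors' Wald test), to 61.5% of ethanol with an interval of 48.2% to 78.4%.

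Fos, the founding member of the family, missed the threshold at both times with folds of the same sign. Its computed level at 12 h was 1697 normalised counts in tamoxifen cells and 2614 in ethanol cells. The log2 fold of Fos at 12 h in the authors' deposited table was -0.62 (SE 0.20, adjusted p = 0.14 in the authors' Wald test), or 64.9% of ethanol. At 24 h the computed level of Fos was 2522 normalised counts in tamoxifen cells and 3439 in ethanol cells, and the authors' deposited table put the log2 fold at -0.45 (SE 0.17, adjusted p = 0.0575 in the authors' Wald test). The interval of Fos lay below the ethanol level at both times, and neither interval is corrected for the number of genes. It was 49.4% to 85.3% of ethanol at 12 h. At 24 h it was 58.5% to 92.1%.

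Fosl2 (Fra-2), a Fos protein without the strong activation domain of Fos, rose modestly. From the authors' deposited table its computed level at 24 h was 976 normalised counts in tamoxifen cells and 827 in ethanol cells. In the authors' deposited table Fosl2 rose by 0.24 on the log2 scale (SE 0.07, adjusted p = 0.0156 in the authors' Wald test), to 118% of ethanol with an interval of 107% to 131%. At 12 h the log2 fold of Fosl2 in the authors' deposited table was of like size, 0.22, with a larger error (SE 0.20, adjusted p = 0.999 in the authors' Wald test), and did not pass. Fosl1 (Fra-1), known for its role in invasive epithelial cells, had a log2 fold of -0.12 (SE 0.43) at 12 h in the authors' deposited table. The log2 fold of Fosl1 at 24 h in the authors' deposited table was -0.0034 (SE 0.09, adjusted p = 0.99), with an interval of 88.1% to 113% of ethanol. Of the exon bases of Fosl1, 57.2% are shared with Ccdc85b on the opposite strand, and the library kit does not mark strand, so reads of the 2 genes cannot be told apart there.

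No Jun gene passed the test at either time. Jun, the main partner of Fos, had a computed level of 1110 normalised counts in tamoxifen cells and 1329 in ethanol cells at 12 h. At 24 h it stood at 1399 in tamoxifen cells and 1529 in ethanol cells, and the log2 fold of Jun in the authors' deposited table was -0.13 (SE 0.10, adjusted p = 0.48). The interval of Jun narrowed to 79.7% to 105% of ethanol at 24 h, against 45.8% to 152% at 12 h. Junb, an AP-1 partner that often restrains Jun, had log2 folds of 0.15 (SE 0.22) at 12 h and -0.06 (SE 0.18) at 24 h in the authors' deposited tables, and was the one member of the 10 whose fold differed in sign between the times. Jund, the most constantly expressed Jun gene in most tissues, had log2 folds of -0.12 (SE 0.27) at 12 h and -0.13 (SE 0.07, adjusted p = 0.23) at 24 h in the authors' deposited tables. Its interval at 24 h was 82.8% to 100.4% of ethanol. Of the exon bases of Jund, 52.6% are shared with Gm11175 on the opposite strand, which is not analysed here, and the same share for Jun is 7.28% and for Junb 7.52%.

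Egr1 and the Ier genes did not pass either. Egr1, a zinc finger factor for GC-rich sites, had a computed level of 6354 normalised counts in tamoxifen cells and 7553 in ethanol cells at 12 h, and of 5959 in tamoxifen cells and 6869 in ethanol cells at 24 h. Its log2 fold in the authors' deposited tables was -0.25 (SE 0.21) at 12 h and -0.20 (SE 0.21, adjusted p = 0.62) at 24 h. Egr1 was the one factor whose error did not shrink at the later time. A smaller error at 24 h was common to most genes, 9633 of the 9861 with a mean of at least 50 at both times. Ier2, a nuclear regulator, stood at 1350 normalised counts in tamoxifen cells and 1543 in ethanol cells at 24 h, with a log2 fold of -0.19 (SE 0.08, adjusted p = 0.0831) in the authors' deposited table. Ier3, a stress-induced regulator of survival and ERK signalling, stood at 1819 in tamoxifen cells and 1614 in ethanol cells at 24 h, with a log2 fold of 0.17 (SE 0.11, adjusted p = 0.34) in the authors' deposited table. At 12 h the log2 folds of Ier2 and Ier3 in the authors' deposited table were -0.06 (SE 0.20) and 0.06 (SE 0.26).

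**Figure D2:**
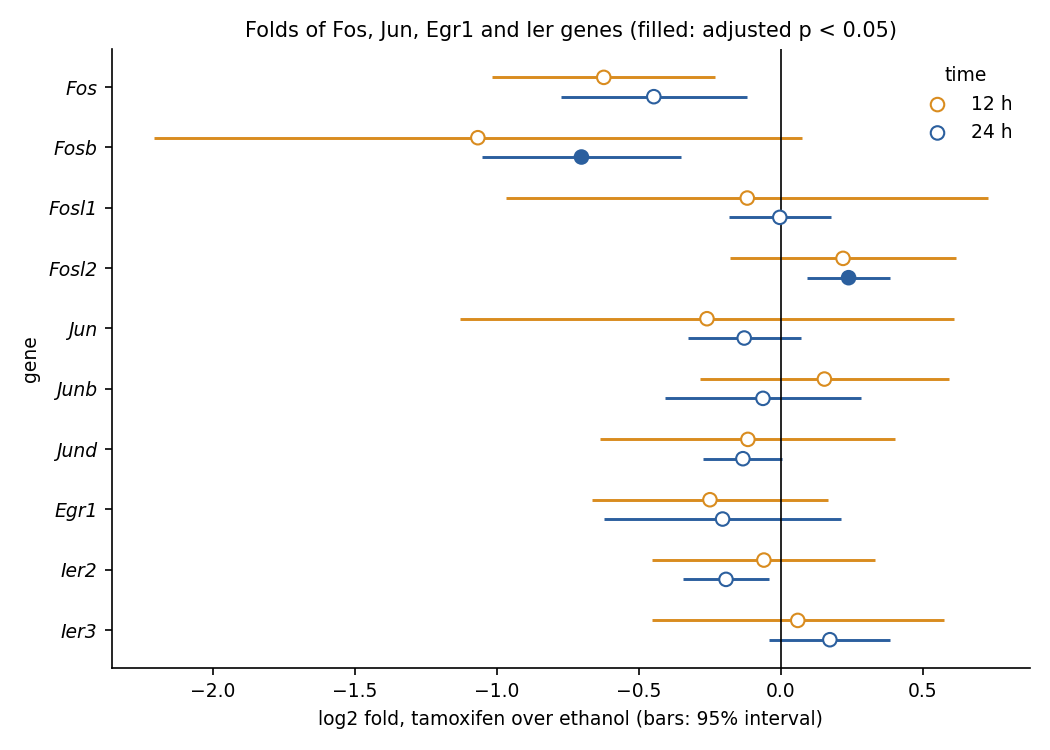
Log2 fold of tamoxifen over ethanol (x axis) of the 10 genes (y axis) at 12 h (orange) and 24 h (blue), with 95% intervals and filled points for an adjusted p under 0.05. The filled points are Fosb at -0.70 and Fosl2 at 0.24, both at 24 h, and the 12 h intervals are the wider ones for 9 of the 10 genes. They are also wider for 9633 of the 9861 genes with a mean of at least 50 at both times.

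Counted together, 0 of the 10 factors passed an adjusted p under 0.05 at 12 h in the authors' deposited table, against 0.943% of all genes tested (0.215% higher and 0.728% lower), and 1, Fos, had an unadjusted p under 0.05, against 4.90% of all genes. At 24 h the authors' deposited table has 1 factor that rose and 1 that fell, against 5.90% and 6.52% of all genes and 12.4% in either direction, and 4 had an unadjusted p under 0.05, against 18.0%. One gene in each direction among 10 is too few to set the group apart from all genes. The median log2 fold of the 10 factors was -0.12 at 12 h and -0.13 at 24 h by the authors' deposited tables, against -0.0062 and -0.00040 over all genes tested. Folds lay below 0 at both times for 7 factors and above 0 at both for 2, so 9 of 10 kept their sign. Of the 9861 genes with a mean of at least 50 at both times, 68.9% kept it, 3528 below 0 and 3270 above. The 7 include Fosl1, whose log2 fold at 24 h was -0.0034 (SE 0.09). The 10 factors were chosen with earlier results of these data known, so these group values are no test.

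The response at 24 h was compared with that at 12 h by the difference of the 2 log2 folds, which come from different libraries. None of the 10 factors passed this test, with 0 at an adjusted p and 0 at an unadjusted p under 0.05 in the Wald test of the difference, against 0.0134% and 1.64% of all genes. The differences, 24 h minus 12 h, ran from -0.22 (Junb) to 0.36 (Fosb), with standard errors of 0.21 to 0.61. The 95% interval of this difference was -0.83 to 1.56 for Fosb, -0.34 to 0.69 for Fos and -0.40 to 0.44 for Fosl2, so changes of size between the times are not resolved.

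The folds of the 2 times, which share no library, were also averaged with inverse-variance weights, a step chosen after the values at each time were seen. The averaging takes the 2 folds as independent. Replicate numbers recur at both times, and the labels do not say whether cultures were shared between the times. If they were, the combined errors could be too small. Adjusted over 14981 genes, 2 factors were lower and 1 was higher, against 5.67% and 4.84% of all genes and 10.5% in either direction. Fos stood at -0.52 (SE 0.13, adjusted p = 0.00123 in the combined Wald test), or 69.8% of ethanol. It was lower at both of the 2 times and passed in the combined test alone. Fosb stood at -0.73 (SE 0.17, adjusted p = 4.90e-04 in the combined Wald test), or 60.1% of ethanol, and Fosl2 at 0.24 (SE 0.07, adjusted p = 0.0105), or 118% of ethanol. Ier2 at -0.18 (SE 0.07, adjusted p = 0.11), Jund at -0.13 (SE 0.07, adjusted p = 0.25) and Egr1 at -0.23 (SE 0.15, adjusted p = 0.43) did not pass in the combined Wald test. For Fosl1 the combined interval on the log2 scale was -0.18 to 0.17, and for Junb it was -0.25 to 0.29.

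The 10 factors varied more between replicate libraries than most genes of their level. The standard error of each fold was set against the median of 201 genes nearest in mean, and the ratio was above 1 for all 10 at both times. At 12 h it ran from 1.42 (Fosl2) to 3.88 (Fosb), and at 24 h from 1.17 (Fosl2) to 4.51 (Egr1). The median ratio of the 10 factors was 1.84 at 12 h and 1.90 at 24 h, and 7 of 10 at each time lay above the value that 5% of genes with a mean of at least 50 exceed, 1.61 and 1.49. Fosb, Fosl1 and Jun had the highest ratios at 12 h, 3.88, 3.30 and 3.25. Egr1, Junb, Fos and Fosb had the highest at 24 h, 4.51, 3.51, 3.30 and 2.99. Counting error was small beside this spread: reads alone would give Fosb an SE of 0.046 at 12 h, where the deposited SE is 0.58, and Egr1 an SE of 0.013 at 24 h, where it is 0.21. As a coefficient of variation between replicates, the deposited errors correspond to 18.1% to 52.7% at 12 h. At 24 h they correspond to 6.48% to 20.9%.

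**Figure D3:**
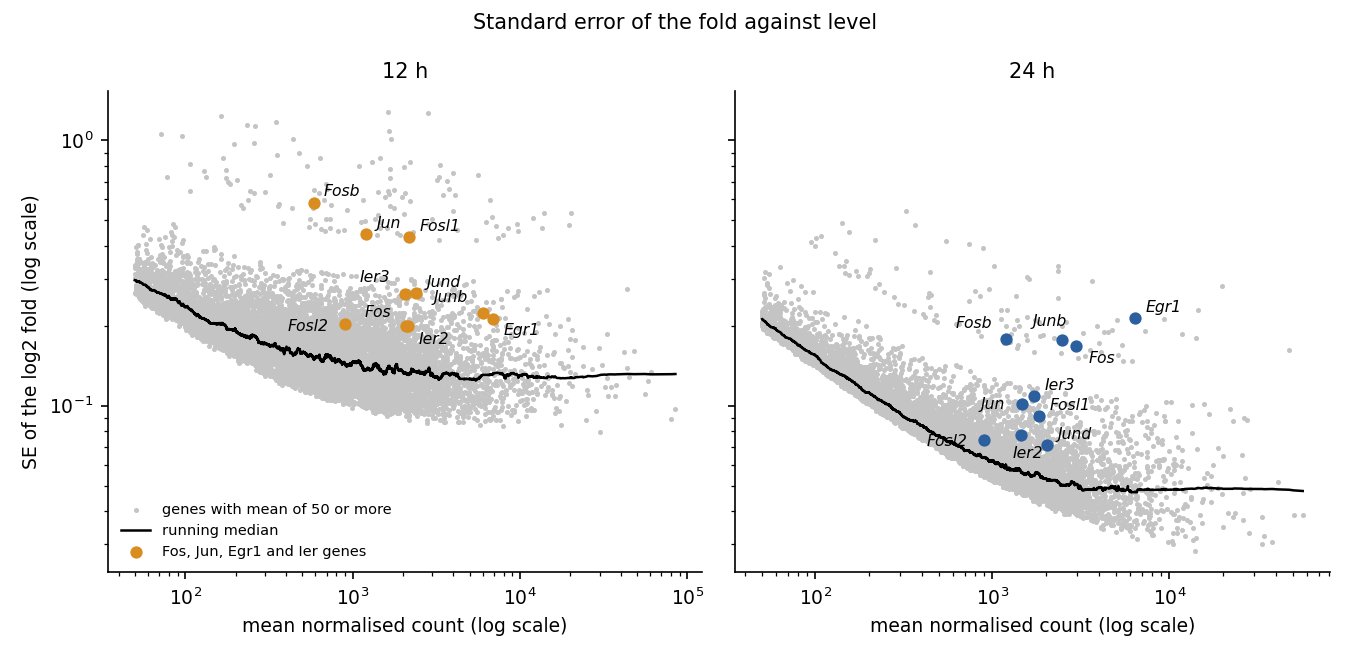
Standard error of the log2 fold (y axis, log scale) against mean normalised count (x axis, log scale) at 12 h (left) and 24 h (right) for genes with a mean of at least 50 (grey), the running median (line) and the 10 factors (coloured, named). All 10 lie above the line at both times, with Fosb highest relative to it at 12 h (3.88 times) and Egr1 at 24 h (4.51 times).

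This spread set what could be called. At 12 h a gene needed a Wald score of 3.50, so that Fosb would have needed a 4.11-fold difference, Jun a 2.93-fold and Fosl1 a 2.86-fold difference, and the easiest, Ier2, a 1.63-fold difference. At 24 h the score needed was 2.74, and the smallest difference that could pass ran from 1.14-fold for Jund to 1.50-fold for Egr1, with 1.37-fold for Fos.

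Related genes were then followed in lists named for their roles and chosen with earlier results of these data known. Among 12 partners of AP-1 in the ATF, BATF, JDP and Maf families, 8 had an adjusted p at each time. None passed at 12 h in the authors' Wald test, with 0 at an unadjusted p under 0.05, against 0.943% and 4.90% of all genes. At 24 h the authors' deposited table has 2 that fell, 1 that rose and 5 that did not pass. Over all genes 6.52% were lower and 5.90% higher at that time. Atf3, a stress-induced factor that pairs with Jun, fell by 0.33 (SE 0.08, adjusted p = 0.00137 in the authors' Wald test) and Mafk, a small Maf protein, fell by 0.35 (SE 0.05, adjusted p = 1.25e-08) at 24 h in the authors' deposited table. Maf, a large Maf protein with its own activation domain, rose by 0.77 (SE 0.12, adjusted p = 3.13e-09 in the authors' Wald test) at 24 h in the authors' deposited table. Of the 8 partners with an adjusted p, Atf3 had the widest error at 12 h, a log2 fold of -0.75 with an SE of 1.28 in the authors' deposited table, 9.19 times that of genes of its level.

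Of 30 other immediate early genes, 29 had an adjusted p at each time. The authors' deposited table has 2 lower and 0 higher past the threshold of the Wald test at 12 h, against 0.728% and 0.215% of all genes. At that time 6 had an unadjusted p under 0.05, against 4.90% of all genes. By the authors' deposited table at 24 h, 8 were lower, 1 was higher and 20 did not pass. Over all genes 6.52% were lower and 5.90% higher at 24 h. The median log2 fold of the list at 24 h was -0.15, against -0.00040 over all genes tested. Dusp1, a phosphatase that switches off MAP kinases, fell at both times, by 0.70 (SE 0.20, adjusted p = 0.0440 in the authors' Wald test) at 12 h and by 0.70 (SE 0.08, adjusted p = 1.88e-17) at 24 h in the authors' deposited tables. Ctgf, a matricellular protein gene, fell by 1.01 (SE 0.15) at 12 h and by 1.05 (SE 0.10) at 24 h in the authors' deposited tables. Ier5, an immediate early relative of Ier2, fell by 0.40 (SE 0.06) and Klf6, a Krüppel-like factor, by 0.40 (SE 0.09) at 24 h in the authors' deposited table. The survival gene Mcl1 fell by 0.19 (SE 0.05), the kinase genes Sgk1 and Plk3 by 0.26 (SE 0.06) and 0.36 (SE 0.11), and the pseudokinase gene Trib1 by 0.21 (SE 0.07) at 24 h in the authors' deposited table. The 1 rise, named after its value was seen, was Btg2, an antiproliferative gene, by 0.30 (SE 0.10, adjusted p = 0.0390 in the authors' Wald test). The spread was also wide in this list: of its 27 genes with a mean of at least 50, 9 at 12 h and 13 at 24 h exceeded the ratio that 5% of such genes exceed.

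Genes that relay signals to Fos, Jun and Egr1 were set against the 0.943% of all genes that passed at 12 h and the 12.4% at 24 h. Of 8 genes for the serum response factor, its partners and the Egr corepressors, 1 rose at 24 h and none passed at 12 h (0 at an unadjusted p under 0.05 in the authors' Wald test): Elk3, a ternary complex factor at serum response elements, by 0.32 (SE 0.07, adjusted p = 2.17e-04) in the authors' deposited table. Of 19 MAP kinases and upstream kinases with an adjusted p, 1 rose at each time and none fell. With 1 gene passing in each list, these counts do not set either list apart from all genes. The kinase gene was Map2k6, a kinase of the p38 pathway, which rose by 0.50 (SE 0.13, adjusted p = 0.0233 in the authors' Wald test) at 12 h and by 0.58 (SE 0.18, adjusted p = 0.0168) at 24 h in the authors' deposited tables. Of these 19 kinases, 0 at 12 h and 1 at 24 h had an SE ratio above the value that 5% of genes exceed. With the same minimum mean of 50, ratios above it were also found in lists outside the immediate early genes. They were 5 of 8 AP-1 partners at 12 h and 2 of 8 at 24 h, 1 and 2 of the 8 genes around the serum response factor, and 4 and 6 of 10 AP-1 targets. Of the biliary markers, which share Spp1 with the targets, 0 of 8 at 12 h and 5 of 8 at 24 h exceeded it, and of the hepatocyte markers 1 of 3 and 3 of 3. A wide spread was therefore not found in the immediate early genes alone.

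Of the 14 textbook target genes of AP-1 reported here, 12 had an adjusted p at 12 h and 10 at 24 h. The list was chosen with earlier results of these data known, so its counts are no test of AP-1 targets as a class. In the authors' deposited tables the same 3 fell at each time, and the other 9 at 12 h and 7 at 24 h did not pass. Over all genes tested 0.728% were lower at 12 h and 6.52% at 24 h. Mmp13, a collagenase, fell by 1.17 (SE 0.32) at 12 h and by 1.31 (SE 0.12) at 24 h in the authors' deposited tables. Plaur, the urokinase receptor, fell by 1.10 (SE 0.24) and 1.24 (SE 0.08), and Sphk1, a sphingosine kinase, by 0.90 (SE 0.19) and 0.92 (SE 0.13), at 12 h and 24 h in the authors' deposited tables. The cyclin gene Ccnd1, listed among the targets and named after its value was seen, had a log2 fold of -0.013 (SE 0.04) at 24 h in the authors' deposited table. Whether the levels of Fos, which passed at neither time alone, and of Fosb bear on these targets was not tested.

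**Figure D4:**
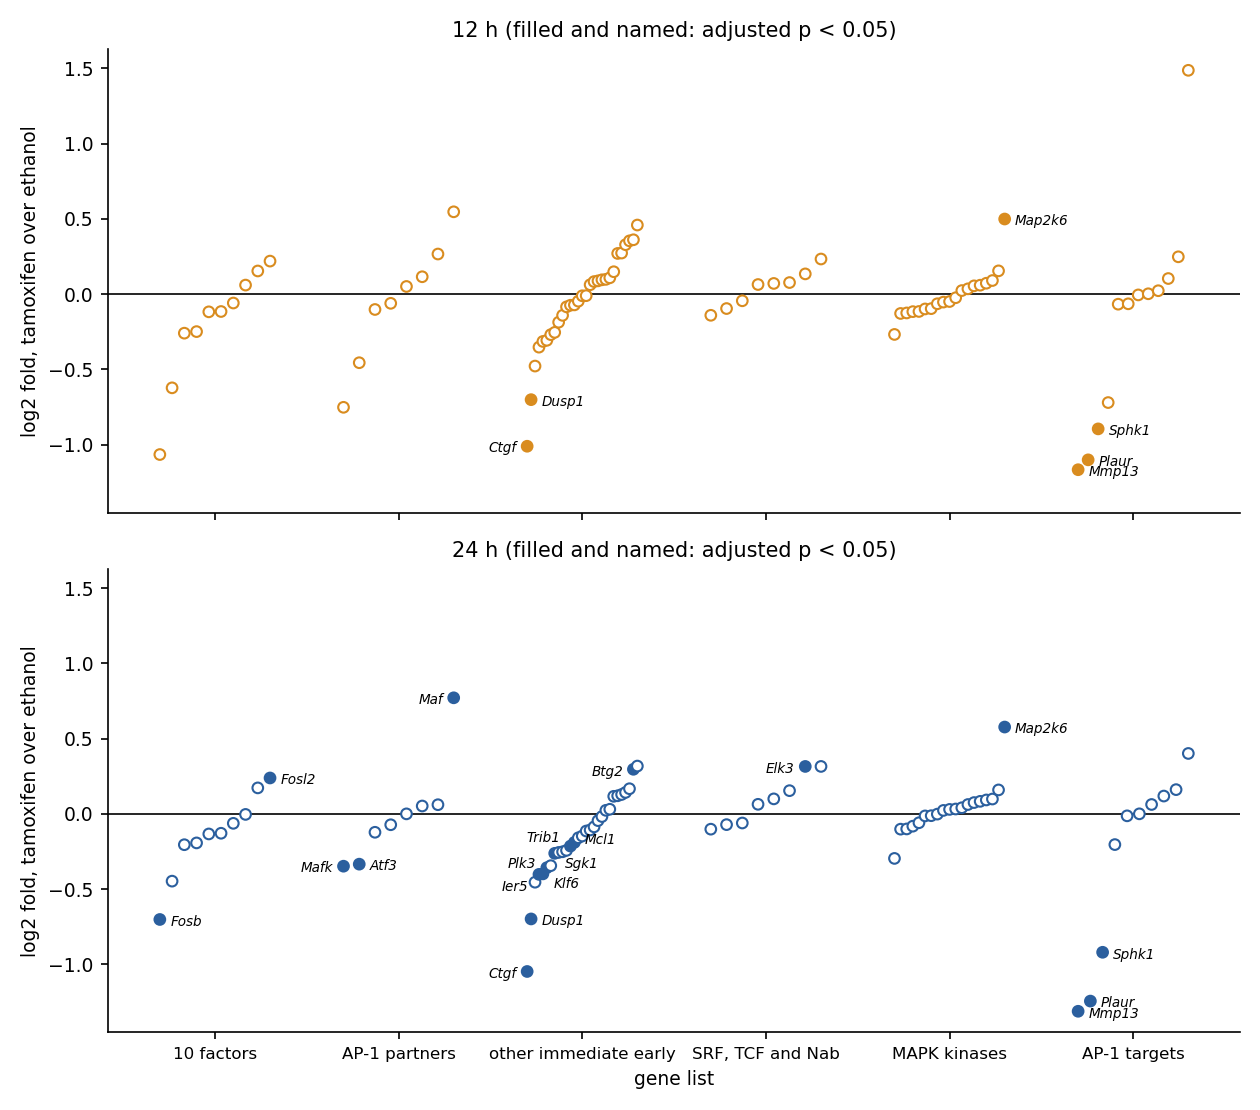
Log2 fold of tamoxifen over ethanol (y axis) of the 10 factors and of 5 related gene lists (x axis) at 12 h (upper panel) and 24 h (lower panel), 1 point per gene with an adjusted p, filled and named where that is under 0.05. Dusp1, Ctgf, Map2k6, Mmp13, Plaur and Sphk1 are filled in both panels, and Fosb and Fosl2 in the lower one.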

How the data were processed

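Single-end RNA-seq libraries (TruSeq RNA v2, per the labels' protocols) were grouped by their titles. The 12 h ethanol titles skip number 2, which is not analysed here. HISAT2, mm10 and DESeq2 are named in the submitters' processing notes, with no roles. The counter, its annotation and the model formula: not given in the sources used here. Per the file headers, the authors' deposited tables give a mean normalised count (signal), log2 fold, standard error, Wald score, p-value and adjusted p-value per gene and time, with no value per library. The direction was checked on genes with 1 read in all: at 12 h their means take 7 values, 3 with folds below 0 and 4 above, which matches tamoxifen (4 libraries) over ethanol (3). At 24 h the split is 4 and 4, so the direction there was taken to be that at 12 h.

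Group levels were solved from mean, fold and library numbers, which approximates the fitted means. The coefficient of variation and the errors of levels were derived from the standard error in the same way, and they cover the spread between libraries and counting error only. Differences and inverse-variance means of the folds, taken as independent between the times, were tested with a Wald test. Both tests used Benjamini-Hochberg adjustment over 14981 genes and were checked on simulated data. Exon lengths and overlaps come from GENCODE vM21 on GRCm38, promoter windows from RefSeq on GRCm38.p6, with 7 of 10 members matched. Computations used scipy 1.17.1, pandas 2.3.3 and numpy 2.4.6 under Python 3.11.15, and matplotlib 3.10.9 drew the plots. All 10 members are named; of each related list, up to 8 genes passing at either time are named, with Btg2 and Ccnd1 added after their values were seen, and 1 gene of the target list is not reported here. Members and lists were chosen with earlier results of these data known. Alternatives were other adjustments, centred folds and a floor on the standard error.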

Additional observations from a re-analysis of the deposited data

How the results depend on the processing

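The calls of the 10 factors kept their direction and their side of the threshold under adjustment over all genes with a p, adjustment over genes with a mean of at least 50, folds centred on the median gene, and standard errors no smaller than typical for the level. The adjusted p of Fosb at 24 h ranged from 0.00155 to 0.00237 over these alternatives, that of Fosl2 from 0.0135 to 0.0212 and that of Fos from 0.0520 to 0.0778. For the combined folds, which were added after the data were seen, the adjusted p of Fos ranged from 8.83e-04 to 0.00140. With centred folds, Fosl1 at 24 h changed sign, to 0.0010 against -0.0034, both well inside its error. Over all genes 2 differed between the times, and 1 with the floor on standard errors. No paired analysis was possible because the tables hold no values per library, and for the same reason leaving out each replicate in turn was not run. The wide errors at 12 h limit what could be called there.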
